A study of Mus musculus with 30 samples.

Results

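The genes described here encode Nogo, its receptors and the coreceptors that work with them. They are 7 of the 53974 genes in a table of RNA levels from the embryonic mouse forebrain and from neural stem and progenitor cells (NSPCs). The 7 were chosen by symbol as a pathway in which Rtn4rl2 was already known to rise strongly with crotonate in these same libraries. The crotonate change in NSPCs is therefore a description, with no test for these genes, and the other readouts were not used in the choice. All 7 passed the filter of 1 TPM (the share of a library's transcripts, corrected for length) or more in 4 or more of 12 NSPC libraries, as did 14857 genes in all.

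The study examined lysine crotonylation, an acyl mark on histones, beside lysine acetylation in the E13.5 forebrain. NSPCs of the C57BL/6 strain at passage 2 to 3, grown with EGF and FGF, received 1 µM MS-275, a drug that blocks class I histone deacetylases, 10 mM crotonate, the fatty acid from which the mark is made, or DMSO as the control, each for 24 h, with 4 RNA libraries a group. RNA of forebrain explants from the ICR strain was compared between 3 crotonate and 3 control libraries, and 1 further library came from C57BL/6 forebrain. Peak lists came from chromatin immunoprecipitation (ChIP) with antibodies to crotonyl-lysine (Kcr) or acetyl-lysine (Kac) in the 3 NSPC groups, and to H3K9cr or H3K9ac in the forebrain, with 1 library per list. All animals were unmodified strains as far as the labels say. The labels state no solvent for crotonate or MS-275 and neither dose nor time for the explants. They do not say whether numbered replicates were separate cultures or animals, so p-values measure the spread between these samples alone.

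Nogo proteins, made from Rtn4, shape the tubular endoplasmic reticulum in many cell types, and the long form Nogo-A is also an inhibitor of neurite growth in the brain. The Nogo receptor family consists of surface proteins with leucine-rich repeats, held in the membrane by a lipid anchor, so they signal to RhoA and its kinase ROCK through coreceptors such as LINGO1, p75NTR and TROY. Myelin proteins, among them MAG and OMgp, share these receptors with Nogo.

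NSPC libraries held the progenitor markers (Nes, Sox2, Vim and others), which, summed over 10 genes, reached 13571 to 14244 with MS-275, 9035 to 9921 with crotonate and 9649 to 10184 in control, in TPM. Most of that sum came from Vim (means of 5970, 3459 and 3671 TPM in the same order) and Fabp7; with MS-275, 3 of the 10 lay wholly above control (Vim, Fabp7, Prom1) and 4 wholly below it (Nes, Sox1, Pax6, Hes1). Of the oligodendrocyte list the sums were 2877 to 3156 with MS-275, 1866 to 2122 with crotonate and 1706 to 1910 in control, nearly all from Olig1 and Olig2, with Mag and Mog below 1 TPM. All 5 erythroid markers stayed below 1 TPM in each NSPC group, whereas they summed to 11531 TPM in the forebrain library. Between 13444 and 14854 genes reached 1 TPM in an NSPC library, with more in both treated groups (14565 to 14854 with MS-275, 14388 to 14595 with crotonate) than in control (13444 to 13696). The table holds no read counts, so the depth behind a value is unknown. In all these bulk libraries a change in the number of cells of a kind and a change in RNA per cell cannot be told apart.

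RefSeq (GRCm38.p6) gives promoter windows from 250 bases before to 50 after a start for 5 of the 7 genes, 9 windows in all. Sequences are shown for 4 genes, since the Kcr list of crotonate-treated NSPCs reached into a window of each and the control list did not. The inner Tnfrsf19 window, with 3 bases in such a peak, is not shown. Of 32817 distinct windows, 19% held a Kcr peak with crotonate and 15.6% in control. The share with crotonate alone was not computed, so nothing is read from the 4 genes. Below are Rtn4rl2 (chr2:84886643-84886942, minus strand), Rtn4r (chr16:18127392-18127691, plus strand), the upstream start of Tnfrsf19 (chr14:61046806-61047105, minus strand) and the upstream and inner starts of Lingo1 (chr9:56796261-56796560 and chr9:56635599-56635898, minus strand). Each runs 5′ to 3′ along its gene, and capitals mark the bases inside a Kcr peak of crotonate-treated NSPCs. The inner Lingo1 start is given as the contrast, since there Kcr was also listed in control cells.
Rtn4rl2: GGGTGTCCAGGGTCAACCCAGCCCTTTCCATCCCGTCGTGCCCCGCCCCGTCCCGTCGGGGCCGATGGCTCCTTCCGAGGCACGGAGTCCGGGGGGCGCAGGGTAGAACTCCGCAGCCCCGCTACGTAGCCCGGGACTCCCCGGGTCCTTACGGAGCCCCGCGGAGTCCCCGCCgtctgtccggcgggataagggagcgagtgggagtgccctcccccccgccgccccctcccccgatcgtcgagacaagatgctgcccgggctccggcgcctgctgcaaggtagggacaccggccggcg
Rtn4r: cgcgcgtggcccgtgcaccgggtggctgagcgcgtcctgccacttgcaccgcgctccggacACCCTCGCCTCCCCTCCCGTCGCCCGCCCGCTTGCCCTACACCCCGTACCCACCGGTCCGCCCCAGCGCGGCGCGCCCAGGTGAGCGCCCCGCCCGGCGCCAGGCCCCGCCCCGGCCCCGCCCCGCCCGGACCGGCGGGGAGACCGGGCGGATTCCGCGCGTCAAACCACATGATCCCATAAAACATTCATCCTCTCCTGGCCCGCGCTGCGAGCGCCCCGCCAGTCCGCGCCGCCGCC
Tnfrsf19 upstream start: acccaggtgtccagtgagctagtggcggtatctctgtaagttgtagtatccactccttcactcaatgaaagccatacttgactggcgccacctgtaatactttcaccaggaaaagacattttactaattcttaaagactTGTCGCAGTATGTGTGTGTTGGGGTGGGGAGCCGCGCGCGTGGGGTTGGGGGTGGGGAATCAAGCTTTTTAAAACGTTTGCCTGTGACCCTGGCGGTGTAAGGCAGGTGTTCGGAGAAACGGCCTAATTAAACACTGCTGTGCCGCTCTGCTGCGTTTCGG
Lingo1 upstream start: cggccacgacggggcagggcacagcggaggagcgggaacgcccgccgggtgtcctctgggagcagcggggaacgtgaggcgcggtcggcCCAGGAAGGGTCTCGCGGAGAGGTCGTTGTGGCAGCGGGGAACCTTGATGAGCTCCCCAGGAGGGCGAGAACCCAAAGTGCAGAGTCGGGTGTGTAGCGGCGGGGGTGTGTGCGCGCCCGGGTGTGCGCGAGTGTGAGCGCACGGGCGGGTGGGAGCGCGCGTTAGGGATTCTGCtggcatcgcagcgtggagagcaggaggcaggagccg
Lingo1 inner start: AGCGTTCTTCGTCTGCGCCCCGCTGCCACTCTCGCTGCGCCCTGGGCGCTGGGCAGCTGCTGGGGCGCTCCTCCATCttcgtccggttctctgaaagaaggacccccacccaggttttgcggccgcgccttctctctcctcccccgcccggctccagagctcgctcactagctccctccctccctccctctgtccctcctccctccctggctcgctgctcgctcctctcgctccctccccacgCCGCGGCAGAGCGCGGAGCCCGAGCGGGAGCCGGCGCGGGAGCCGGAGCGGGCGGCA

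The Rtn4rl2, Rtn4r and Lingo1 windows were rich in G and C, at 74.0% for Rtn4rl2, 78.0% for Rtn4r, 71.3% for the upstream and 72.7% for the inner Lingo1 start, against a median of 52.7% over the 32817 distinct promoter windows of the table. The ratio of observed to expected CpG was 0.858, 1.11, 1.02 and 0.857 in the same order, against a median of 0.383. The Tnfrsf19 window had 51.0% G and C, below the median, and a CpG ratio of 0.734. The GC box GGGCGG, searched on both strands, occurred 7 times in the Rtn4r window, 2 times at Rtn4rl2 and at the inner Lingo1 start and 1 time at the upstream Lingo1 start, and not in the Tnfrsf19 window; 35.6% of all windows hold it. On either strand, none of the 5 windows held CCAAT, which 37.4% of all windows hold. The TATA box TATAAA, in 13.6% of all windows, and the palindrome TGACGTCA, in 1.79%, were not in them either. These matches describe letters in the window and show no binding.

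Among the ligands, Rtn4 itself (ENSMUSG00000020458, chr11:29692898-29744414) was the most abundant of the 7 genes in every group. Its level was 238, 227, 248 and 220 TPM in the MS-275 libraries, 160, 185, 170 and 166 TPM with crotonate, and 175, 175, 182 and 169 TPM in control. The MS-275 libraries lay above all others, while crotonate and control overlapped. Rtn4 rose with MS-275 by 0.41 ± 0.0485 (SE) on the log2(TPM + 1) scale over control, with an adjusted p of 9.43e-06 by limma, and was 0.45 ± 0.0485 above crotonate (adjusted p of 1.16e-05 by limma). With crotonate it differed from control by -0.0435 ± 0.0485. The table sums all transcripts of a gene, so Nogo-A, Nogo-B and Nogo-C are not told apart, and the end of Eml6, at a mean of 1.85 to 4.45 TPM per group, overlaps that of Rtn4.

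Omg (chr11:79500982-79504082) encodes OMgp, a lipid-anchored myelin protein that binds the same receptors. It had 1.14, 1.55, 0.794 and 1.13 TPM with MS-275, 3.10, 4.04, 2.94 and 4.67 TPM with crotonate, and 3.72, 6.36, 3.47 and 8.12 TPM in control. All MS-275 values lay below the other groups, and in both other groups replicates 2 and 4 were the high ones. With MS-275 Omg fell by 1.52 ± 0.22 on the log2 scale against control (adjusted p of 5.6e-05, limma) and was -1.12 ± 0.22 against crotonate (adjusted p of 0.00128, limma). Its crotonate difference from control was -0.40 ± 0.22, with overlapping groups, and -0.21 without control replicate 4. Omg lies within the span of Nf1, whose mean was 32.7 ± 0.80 TPM with MS-275, 34.9 ± 1.14 TPM with crotonate and 34.4 ± 2.09 TPM in control (SD, n = 4 each). Whether the authors' quantification used strand is not given in the sources used here, so reads of overlapping genes cannot be told apart.

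**Figure D1:**
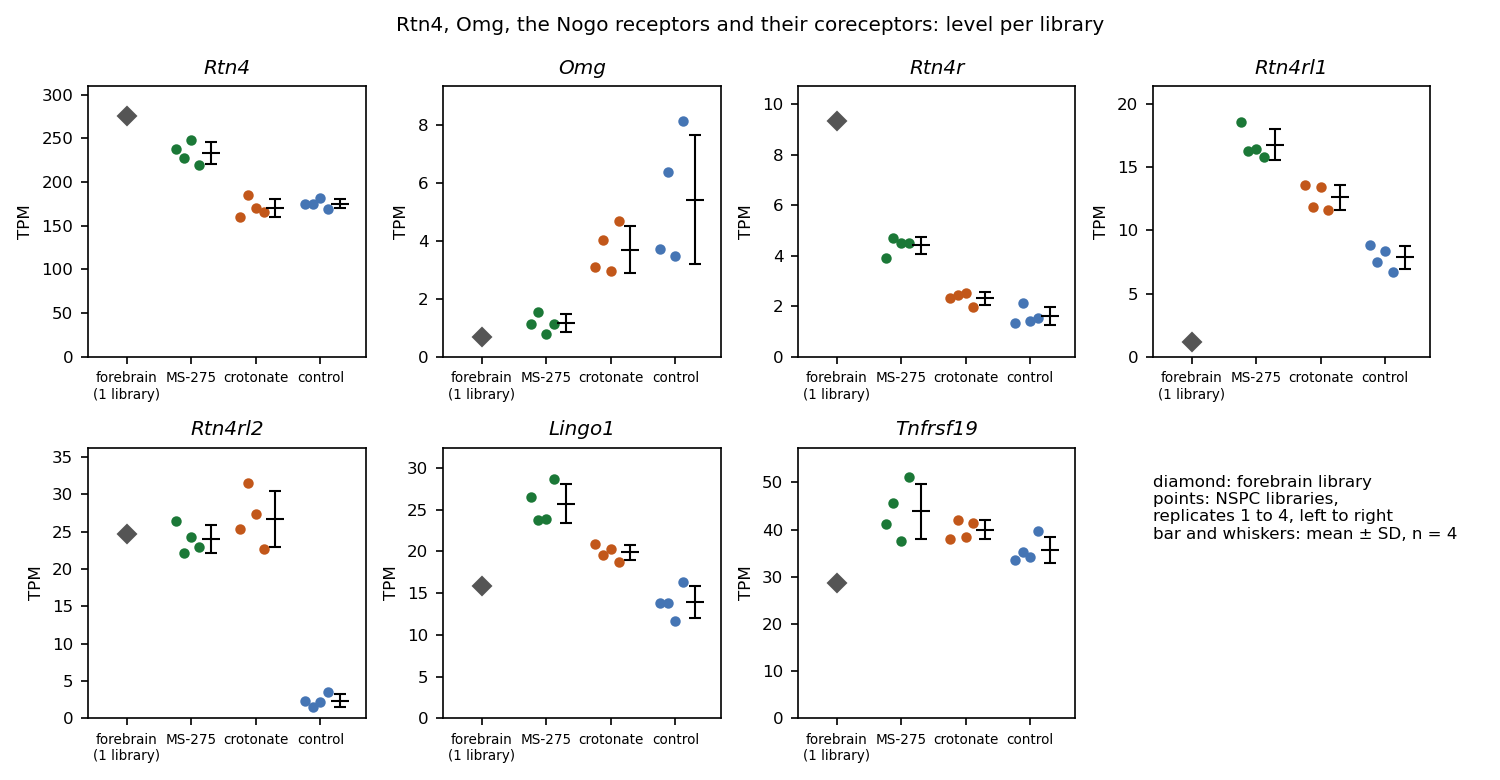
RNA level (TPM, linear axis from 0) of each gene in the forebrain library (diamond) and in the NSPC libraries (points, replicates 1 to 4 from left to right), with mean ± SD of 4 libraries beside each group. Rtn4rl2 sits between 22.2 and 31.5 TPM in all 8 treated libraries and between 1.45 and 3.48 TPM in control.

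Among the receptors Rtn4rl2 changed most; the gene (ENSMUSG00000050896, chr2:84871297-84888641) encodes NgR2, a receptor known to bind MAG. It had 26.5, 22.2, 24.3 and 22.9 TPM with MS-275, 25.4, 31.5, 27.4 and 22.7 TPM with crotonate, and 2.37, 1.45, 2.13 and 3.48 TPM in control. Every treated library was far above every control library, and the treated groups overlapped each other. The mean ratio to control was 10.2-fold with MS-275 and 11.3-fold with crotonate. On the log2(TPM + 1) scale, which understates changes of low genes, the crotonate difference from control was 3.07 ± 0.15, the 8th highest of 14857 genes; this is the value that led to the choice of these genes. Rtn4rl2 rose with MS-275 by 2.93 ± 0.15 over control, rank 36 from the top, with an adjusted p of 7.26e-09 by limma. That comparison shares its 4 control libraries with the crotonate one. With 0.1 in place of 1 added to TPM, Rtn4rl2 ranked 47 from the top with crotonate and 165 with MS-275. MS-275 differed from crotonate by -0.14 ± 0.15.

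Rtn4rl1 (chr11:75193993-75267769) encodes NgR3, known as a receptor for chondroitin sulfate proteoglycans. It was graded across the groups, with 18.6, 16.3, 16.5 and 15.8 TPM with MS-275, 13.6, 11.8, 13.4 and 11.6 TPM with crotonate, and 8.86, 7.54, 8.35 and 6.75 TPM in control. No 2 groups overlapped. Rtn4rl1 rose with MS-275 by 1.01 ± 0.087 over control (adjusted p of 5.5e-07, limma) and was 0.39 ± 0.087 above crotonate (adjusted p of 0.00292, limma). The crotonate difference from control was 0.62 ± 0.087.

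Rtn4r (chr16:18127642-18152408) encodes NgR1, the receptor of the inhibitory Nogo-66 loop, and had the lowest mean of the receptors in every NSPC group, although in control its range overlapped that of Rtn4rl2. It had 3.91, 4.70, 4.50 and 4.52 TPM with MS-275, 2.33, 2.44, 2.53 and 1.96 TPM with crotonate, and 1.32, 2.15, 1.43 and 1.54 TPM in control. MS-275 stood apart from both other groups, which overlapped through control replicate 2. Rtn4r rose with MS-275 by 1.06 ± 0.12 over control (adjusted p of 4.75e-06, limma), or by 0.56 after quantile normalization of the columns, and was 0.71 ± 0.12 above crotonate (adjusted p of 3.35e-04, limma). Its crotonate difference from control was 0.35 ± 0.12, and -0.078 after that normalization. RefSeq places a predicted gene, Gm52241, over its start.

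Summed over the 3 receptors, the level was 45.2 ± 2.71 TPM with MS-275, 41.7 ± 4.04 TPM with crotonate and 11.8 ± 0.58 TPM in control (SD, n = 4 each). Rtn4rl2 made up 53.0% ± 1.15 of it with MS-275, 64.0% ± 3.30 with crotonate and 19.8% ± 6.97 in control. In control cells Rtn4rl1 was the main receptor transcript, at 66.4% ± 6.20, against 37.2% ± 0.80 with MS-275 and 30.4% ± 3.17 with crotonate. Rtn4r supplied 9.81% with MS-275, 5.55% with crotonate and 13.7% in control.

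**Figure D2:**
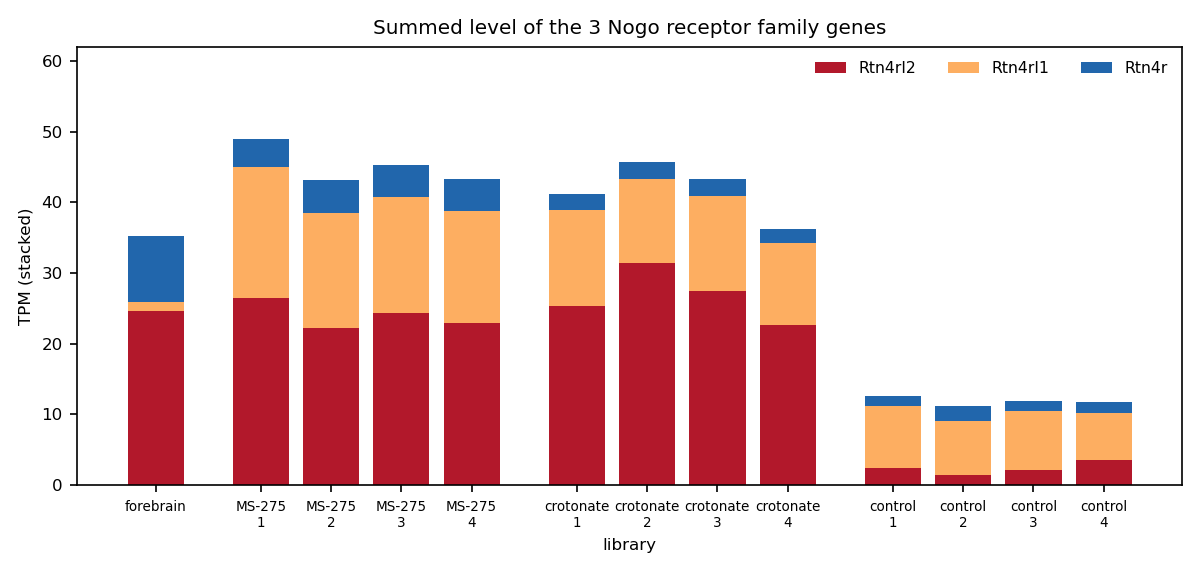
Stacked TPM of Rtn4rl2, Rtn4rl1 and Rtn4r in each library, with replicate numbers under the bars. The total lies between 36.3 and 49.0 TPM in the 8 treated NSPC libraries and between 11.1 and 12.6 TPM in control, where Rtn4rl1 is the main part.

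Of the coreceptors, Lingo1 (chr9:56618460-56796310), whose protein joins NgR1 in its signalling complex, had 26.5, 23.8, 24.0 and 28.7 TPM with MS-275, 20.9, 19.6, 20.3 and 18.8 TPM with crotonate, and 13.9, 13.9, 11.7 and 16.3 TPM in control. The groups did not overlap, with MS-275 highest and control lowest. Lingo1 rose with MS-275 by 0.85 ± 0.0896 over control (adjusted p of 3.42e-06, limma) and was 0.35 ± 0.0896 above crotonate (adjusted p of 0.00634, limma). The crotonate difference from control was 0.49 ± 0.0896.

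Tnfrsf19 (chr14:60963834-61046855) encodes TROY, a receptor of the TNF family that can take the place of p75NTR. It had 41.2, 45.7, 37.7 and 51.1 TPM with MS-275, 38.0, 42.0, 38.5 and 41.4 TPM with crotonate, and 33.6, 35.3, 34.1 and 39.7 TPM in control. All 3 groups overlapped, and replicates 2 and 4 were the high ones in each. Tnfrsf19 rose with MS-275 by 0.29 ± 0.0845 over control (adjusted p of 0.00971, limma). Against crotonate MS-275 gave 0.12 ± 0.0845 (adjusted p of 0.251, limma), and crotonate gave 0.16 ± 0.0845 over control.

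Across all genes tested, limma called 37.4% higher and 27.6% lower for MS-275 against control, and 6 of the 7 genes were higher and 1 lower. For MS-275 against crotonate it called 19.3% of genes higher and 27.4% lower; apart from Rtn4rl2, which was not tested there, 4 of the 7 were higher (Rtn4, Rtn4r, Rtn4rl1, Lingo1) and 1 lower (Omg). In levels, 33.6% of genes lay wholly above and 24.9% wholly below control with MS-275, and so did 5 and 1 of these 7. With crotonate 29.5% lay wholly above and 14.7% wholly below control, and 3 of the 7 did so upwards (Rtn4rl1, Rtn4rl2, Lingo1); as that comparison chose the genes, nothing is read from this. The progenitor and oligodendrocyte marker sums given above were also higher with MS-275. The neuron markers summed to 1113 to 1166 TPM with MS-275, 834 to 911 TPM with crotonate and 929 to 1009 TPM in control, and of these 10 genes 9 lay wholly above and 0 wholly below control with MS-275, and 7 above and 2 below with crotonate. Snap25, a synaptic protein of neurons and 1 of those above control with both treatments, averaged 28.7 TPM with MS-275, 25.0 TPM with crotonate and 4.32 TPM in control. The 2 below control with crotonate were Map2, at a mean of 244 TPM against 303 TPM in control, and Gap43, at 500 TPM against 622 TPM. The 5 astrocyte markers summed to 155 to 201 TPM with MS-275, 109 to 135 TPM with crotonate and 98.8 to 143 TPM in control, and the 5 endothelial markers to 4.35 to 5.65, 2.61 to 3.19 and 0.940 to 1.32 TPM in the same order. The part of these cell types in the results was not tested.

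The order of the levels, which TPM allows between genes because it is per length, differed by group. With MS-275 it was Rtn4, Tnfrsf19, Lingo1, Rtn4rl2, Rtn4rl1, Rtn4r and Omg, where Lingo1 and Rtn4rl2 overlapped. With crotonate it was Rtn4, Tnfrsf19, Rtn4rl2, Lingo1, Rtn4rl1, Omg and Rtn4r, with no overlap between neighbours. In control it was Rtn4, Tnfrsf19, Lingo1, Rtn4rl1, Omg, Rtn4rl2 and Rtn4r, where the last 4 overlapped from one neighbour to the next.

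The forebrain library, which has no replicate, held 24.7 TPM of Rtn4rl2, against 2.36 ± 0.84 TPM in control NSPCs (SD, n = 4). It lay above the control range for Rtn4 (276 TPM), Rtn4r (9.33 TPM) and Rtn4rl2, and below it for Rtn4rl1 (1.21 TPM), Tnfrsf19 (28.7 TPM) and Omg (0.670 TPM). Lingo1, at 15.9 TPM, fell inside the control range. Rtn4rl2 supplied 70.1% of the receptor sum in the forebrain, Rtn4r 26.5% and Rtn4rl1 3.43%. The 10 neuron markers summed to 3155 TPM in the forebrain library, against 929 to 1009 TPM in control NSPCs, and the progenitor markers to 2257 TPM, against 9649 to 10184 TPM. The part of these cell types in the differences was not tested.

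In the explants, forebrain tissue of another strain, the log2 fold change of Rtn4rl2 with crotonate was near 0. The authors' deposited table gives it a log2 fold change with crotonate of -0.0211 ± 0.12 (SE), with an adjusted p of 0.938, at a mean of 193 normalized counts. In the authors' deposited table Tnfrsf19 rose by 0.40 ± 0.0613 (adjusted p of 1.56e-09) and Rtn4rl1 by 0.67 ± 0.23 (adjusted p of 0.0229). The same table of the authors has Rtn4 lower, by -0.0564 ± 0.019 (adjusted p of 0.0189), on a mean of 11230 normalized counts. Rtn4r at 0.16 ± 0.13 (adjusted p of 0.462) and Lingo1 at -0.13 ± 0.0611 (adjusted p of 0.118) did not pass in the authors' deposited table. Omg, at 0.45 ± 0.53 on 12.1 normalized counts, was taken to have no computed adjusted p there. Genes were taken to have one by a rule inferred here. It asked for a p and a mean no lower than the lowest among genes with an adjusted p under 1. Of the 14507 genes that met it, 10.5% were higher and 9.75% lower. Of the genes described here 6 met it, with 2 higher and 1 lower. The NSPC and explant changes come from separate tables, normalized apart, and since the explant table holds no value per library their difference was not tested.

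**Figure D3:**
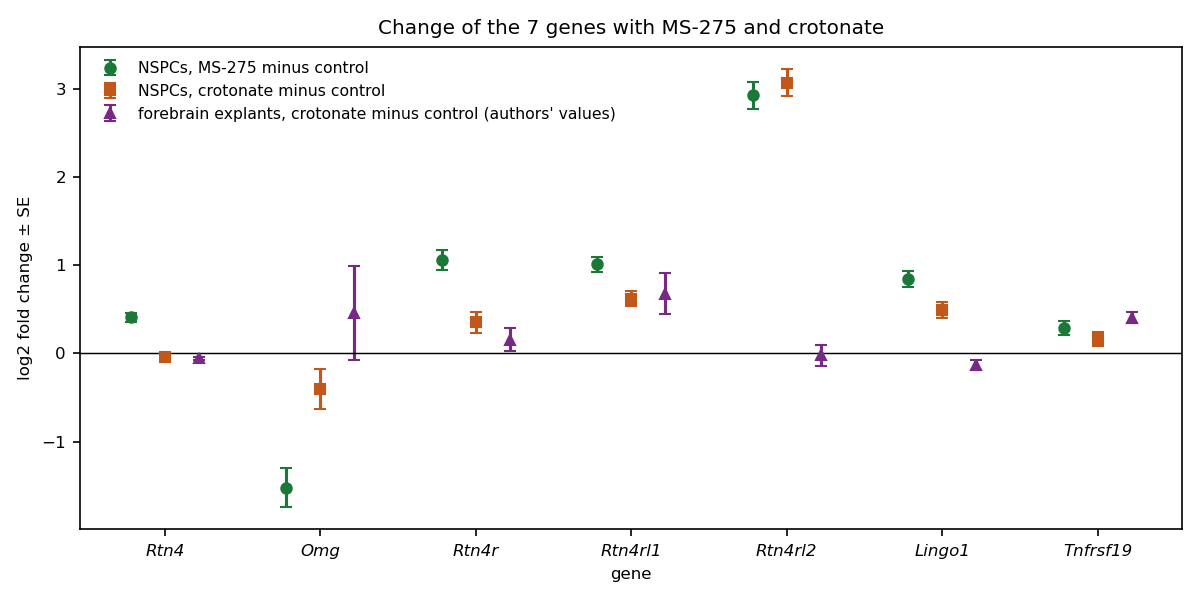
Log2 fold change ± SE of each gene for MS-275 minus control and crotonate minus control in NSPCs (log2(TPM + 1) scale, limma) and for crotonate minus control in explants (the authors' deposited values). Rtn4rl2 stands at 2.93 and 3.07 in NSPCs and at -0.0211 in explants.

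At Rtn4rl2 the NSPC control lists had no Kcr and no Kac peak within 1 kb of the gene. The crotonate Kcr list held 3 peaks there, at chr2:84886769-84887428, chr2:84888012-84888321 and chr2:84888945-84889219, and the first of these covers 174 of the 300 bases of the promoter window. The crotonate Kac list held 3 peaks at nearly the same places (chr2:84886805-84887013, chr2:84887956-84888345 and chr2:84888920-84889126). With MS-275 the Kac list had 2 peaks, chr2:84886716-84886982 over the promoter window and chr2:84888906-84889146, while the Kcr list had none within 1 kb. In the forebrain, H3K9ac covered chr2:84885363-84888538 at a fold enrichment of 11.6 in the authors' peak list, and H3K9cr covered chr2:84885595-84886972 at 4.97; both include the whole window.

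Over 13773 tested genes with a position, 15.9% had a Kcr peak within 1 kb in the crotonate list and none in the control list, and of the 7 genes these were Rtn4rl2 and Rtn4r. For Kac the same held for 8.40% of genes, and for Rtn4rl2 and Omg. With MS-275 the shares were 3.41% for Kcr, with Rtn4r among the 7, and 2.12% for Kac, with Rtn4rl2. The MS-275 lists are short, with 5845 Kcr and 7555 Kac peaks, against 23301 and 21616 with crotonate and 17669 and 23427 in control, and hold a peak near 23.4% and 25.4% of genes. The lists give no height and no calling threshold, and with 1 library per list a missing peak is not a tested loss.

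Rtn4r had no Kcr peak in control. With MS-275 there was 1, chr16:18127497-18128004, and with crotonate 3, of which chr16:18127453-18127994 covers 239 bases of the promoter window. Kac at Rtn4r was already listed in control (chr16:18127433-18127732), as well as with crotonate (2 peaks), but not with MS-275. The forebrain H3K9cr peak chr16:18127821-18128257 had a fold enrichment of 5.76 in the authors' list.

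Lingo1 has 2 RefSeq starts. At the upstream one no control peak was listed, whereas Kac peaks stood there with MS-275 (chr9:56796531-56796731) and with crotonate (chr9:56796320-56796796), and a Kcr peak with crotonate (chr9:56796297-56796471). At the inner start Kcr and Kac peaks were present in control too, as at chr9:56635113-56635615 for Kcr. An lncRNA gene, Gm31586, lies within 1 kb of the upstream peaks.

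Rtn4rl1 had peaks at its lower-coordinate end in both treatments and none there in control. These were chr11:75193429-75193806 and chr11:75194291-75194520 for Kcr with MS-275, chr11:75193212-75193643 and chr11:75193788-75194449 for Kcr with crotonate, and for Kac chr11:75193370-75193604 with MS-275 and chr11:75193361-75193990 and chr11:75194080-75194438 with crotonate. Within the gene, Kcr at chr11:75211842-75212182 was listed in control as well. The lncRNA genes Gm35117 and Gm35169 overlap the gene.

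Rtn4 had peaks near its starts in control as well as in crotonate-treated cells. Its Kcr peaks lay between the first and middle starts, at chr11:29692972-29693599 with crotonate and chr11:29693046-29693599 in control, and after the middle start, at chr11:29693897-29694195 with crotonate and chr11:29693782-29694230 in control. With MS-275 the Kcr peaks were chr11:29692279-29692505, before the first start, and chr11:29693932-29694319, after the middle start. The MS-275 Kac list had no peak near Rtn4. Of 13773 tested genes with a position, 49.8% had a Kac peak in the control list and none in the MS-275 list, Rtn4 and Rtn4r among them. Tnfrsf19, whose start overlaps the lncRNA gene Gm41167, had 2 Kcr peaks with MS-275, 4 with crotonate and 3 in control. Over the upstream Tnfrsf19 start shown above, the Kcr lists held chr14:61046763-61047024 with MS-275 and chr14:61046641-61046966 with crotonate, which no control Kcr peak overlaps, whereas the control Kac list did cover that start (chr14:61046548-61047041). At Omg only the crotonate Kac list held a peak, chr11:79503393-79503635, which also lies within Nf1.

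**Figure D4:**
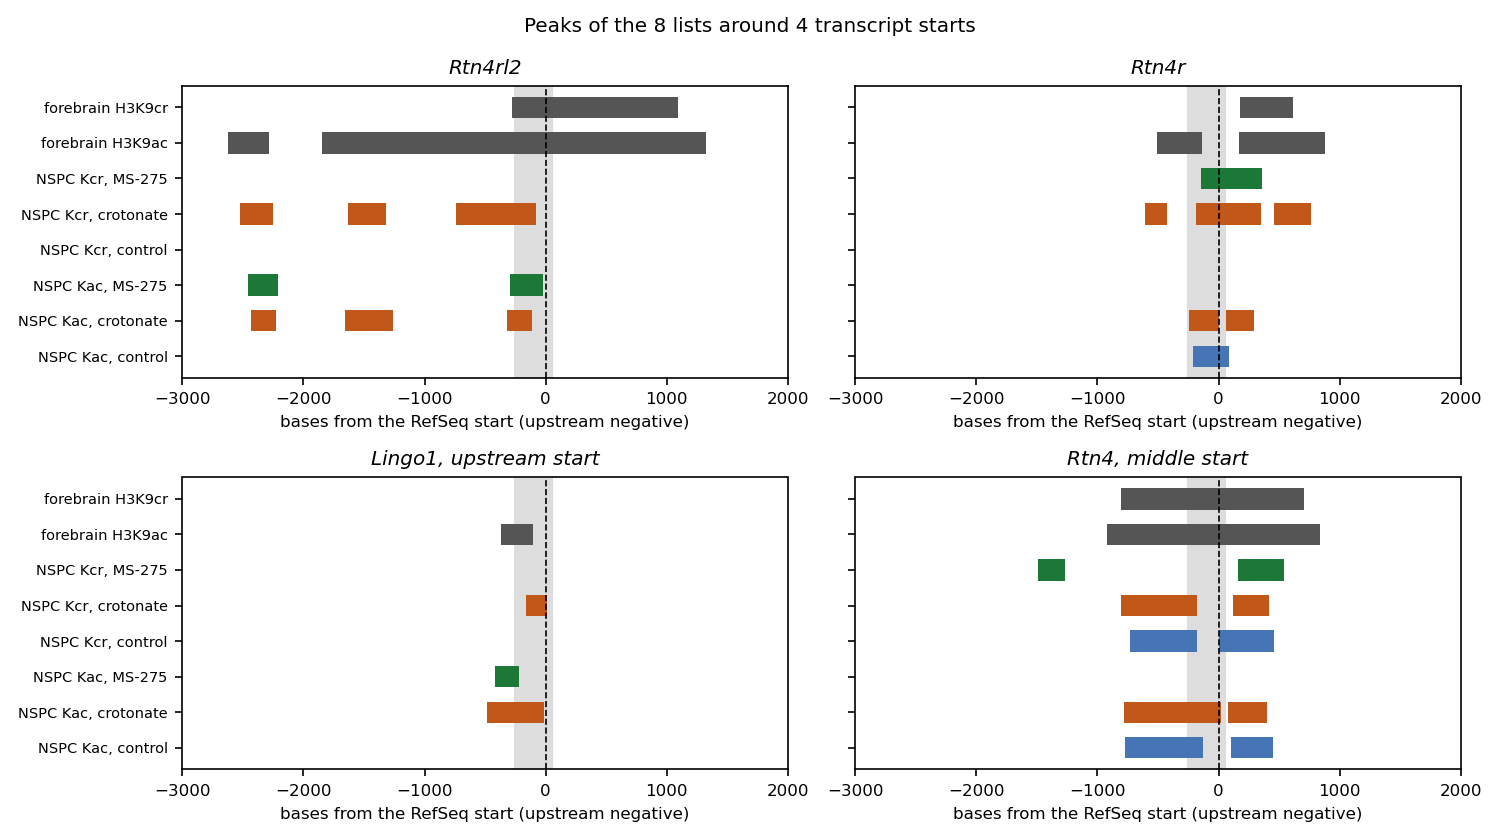
Peaks of the 8 lists (bars, 1 row per list) by distance in bases from a RefSeq start, for Rtn4rl2, Rtn4r, the upstream start of Lingo1 and the middle start of Rtn4; the grey band is the 300-base promoter window. Rtn4rl2 has no peak in either control list, while Rtn4 has peaks in both.

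Of 18 other partners of Nogo receptors, 14 were tested, and Mag, Lingo2, Pirb and Lgi1 were not. This list and the lists below were chosen with earlier results of these data known, so their counts beside all genes are a description. With MS-275 limma called 11 of the 14 higher and 2 lower, with a median log2 change of 0.54, against 37.4% higher and 27.6% lower over all genes and a median of 0.0803. Crtac1, an antagonist of NgR1, averaged 9.16 ± 1.20 TPM with MS-275, 10.1 ± 1.01 TPM with crotonate and 3.08 ± 0.20 TPM in control (SD, n = 4 each), and rose with MS-275 by 1.31 (adjusted p of 1.31e-07, limma). Cntnap1, a Nogo-A partner beside the node of Ranvier, rose by 1.40 (adjusted p of 1.94e-07, limma), and Lingo4, a paralog of Lingo1, fell by 0.37 (adjusted p of 0.00687, limma). Ngfr, which encodes p75NTR and was picked for that role after its values were seen, averaged 7.62 ± 2.26 TPM with MS-275, 2.75 ± 0.68 TPM with crotonate and 1.44 ± 0.56 TPM in control, and rose with MS-275 by 1.81 (adjusted p of 9.07e-06, limma).

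With crotonate limma called 9 of the 14 partners higher and 0 lower against control, with a median of 0.45. At an unadjusted p under 0.05, 0 partners were lower as well. The share of all genes at that level was not computed, so nothing is read from that count. By adjusted p, 32.3% of all genes were called higher and 15.9% lower, around a median of 0.0884. Scaling the columns by median-of-ratios moved that overall median to -0.0142 and the share of called genes that were higher to 47.7%, against 67.1% as deposited. After quantile normalization that crotonate share was 45.6%. For MS-275 against control the same share was 57.5% as deposited, 50.4% after median-of-ratios scaling and 46.5% after quantile normalization.

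Of 18 reticulons and other proteins of the tubular endoplasmic reticulum, 10 were called higher and 3 lower with MS-275 (median 0.24), and 8 higher and 3 lower with crotonate (median 0.0665). Over all genes 37.4% were higher and 27.6% lower with MS-275 (median 0.0803), and 32.3% higher and 15.9% lower with crotonate (median 0.0884, above that of the list). Reep6 and Reep2, which shape endoplasmic reticulum tubules, rose with MS-275 by 1.30 (adjusted p of 1.61e-08, limma) and 0.73 (adjusted p of 1.72e-07, limma). Spast, a microtubule-severing ATPase, fell by 0.56 (adjusted p of 1.23e-07, limma).

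Downstream of the receptors, in a list of 18 RhoA and ROCK genes, 4 were called higher and 8 lower with MS-275 (median -0.13). With crotonate 4 were called higher and 9 lower (median -0.14). Over all genes 37.4% were higher and 27.6% lower with MS-275 (median 0.0803), and 32.3% higher and 15.9% lower with crotonate (median 0.0884). Cfl2, an actin-severing cofilin, fell by 0.41 with MS-275 (adjusted p of 3.12e-07, limma). Myl9, a regulatory myosin light chain, rose by 2.50 (adjusted p of 1.39e-09, limma), with means of 18.8 ± 2.06 TPM with MS-275, 6.22 ± 0.27 TPM with crotonate and 2.51 ± 0.46 TPM in control (SD, n = 4 each).

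In the authors' deposited table for explants 1 of the 15 partners with an adjusted p was higher and 3 lower, 4 of 18 tubular endoplasmic reticulum genes were higher and 1 lower, and 0 of 18 RhoA and ROCK genes were higher and 4 lower by DESeq2. Over all 14507 genes with an adjusted p, 10.5% were higher and 9.75% lower. At an unadjusted p under 0.05, 1 RhoA and ROCK gene was higher and 7 were lower. The share of all genes at that level was not computed, so nothing is read from this count. The medians there were -0.0445, 0.0229 and -0.0644, against 0.0021 over all 14507 genes.

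The genes whose log2(TPM + 1) values followed each gene most closely over the 12 NSPC libraries, by Pearson's r, are given as a description, since the libraries share their 3 groups. For Rtn4rl2 these were H2-Ab1 (r of 0.994), Phldb3 (0.994) and Snhg11 (0.993). Spearman's rank correlation with Rtn4rl2 was lower for them, at 0.895, 0.832 and 0.741. H2-Ab1, a class II histocompatibility chain, averaged 26.1 ± 1.24 TPM with MS-275, 27.0 ± 1.98 TPM with crotonate and 1.34 ± 0.64 TPM in control (SD, n = 4 each), but 0.751 TPM in the forebrain library, where Rtn4rl2 was high. For Rtn4 they were Vim, Plk2 and Cttnbp2nl, for Rtn4r Fam174b, Ppp1r14c and Mirt1, and for Rtn4rl1 Cd44, Ankrd6 and Hadh, with r between 0.976 and 0.990. For Lingo1 they were Tmc7, Rom1 and Rmc1, for Tnfrsf19 Adcyap1r1, Tmc4 and Klhl24, and for Omg Aldoa, Rpl30 and Hnrnph3, with r between 0.921 and 0.981. Among the 7 genes themselves, r was 0.865 between Rtn4rl2 and Rtn4rl1 and -0.598 between Rtn4rl2 and Omg.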

How the data were processed

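TPM values per gene were made by the authors with Salmon 1.0.0, per the submitters' processing notes, and deposited as 1 table without counts, so no count test was possible. For explants the authors deposited a signal column (the mean of normalized counts), log2 fold changes with SE, and adjusted p-values, from DESeq2 1.26.0 per the submitters' processing notes. Reads of ChIP libraries were aligned to GRCm38 with Bowtie2 2.3.5.1 and peaks called with MACS2 2.2.5, per the same notes; the deposited forebrain lists give fold enrichment and −log10 q, the deposited NSPC lists positions alone.

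Differences in log2(TPM + 1) between the 3 NSPC groups came from a single limma fit (limma 3.58.1 in R 4.3.3, eBayes with a trend), two-sided, with Benjamini-Hochberg adjustment over 14857 genes and a threshold of 0.05. The fit was also run on simulated data with independent noise in each library. That simulation leaves out the pairing by replicate number given next, so it does not check the fit for paired samples. Replicate numbers paired the samples: deviations correlated at 0.119 to 0.241 between same-numbered libraries of different groups and at -0.197 to 0.0993 otherwise, and adding these numbers to the model as a replicate block is one of the alternatives. A peak within 1 kb of a gene counted as near, by RefSeq positions, which 13773 of the tested genes have. Tables used Python 3.11.15 and pandas 2.3.3. The 7 genes and the lists were chosen with earlier results of these data known. From each list the text names the 2 genes with the smallest adjusted p for MS-275 against control in the list's main direction and the first in the other, and for each of the 7 the 3 genes with the highest r; 1 gene that this rule takes is not reported here. Protein sequences were not used here.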

Additional observations from a re-analysis of the deposited data

How the results depend on the processing

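Under 19 alternatives (pseudocount 0.1, no filter, 2 other scalings, no trend, a replicate block, only the groups compared, each of 12 libraries left out) the 6 higher and 1 lower calls for MS-275 against control, and the 4 higher and 1 lower calls against crotonate, kept their direction and their side of the threshold. The largest adjusted p among them was 0.0371, for Tnfrsf19 against control. The replicate block left the Rtn4rl2 changes at 3.07 with crotonate and 2.93 with MS-275 against control and changed no call of the 7 genes for MS-275 against either group, with 7450, 9873 and 7236 genes called for crotonate against control, MS-275 against control and MS-275 against crotonate, against 7152, 9668 and 6933 without it. For crotonate against control, where the 7 are described without a test, the block narrowed the SE of Tnfrsf19 to 0.0545 and that of Omg to 0.15. The fit with no filter held the 28631 genes above 0 in any NSPC library.

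The crotonate change of Rtn4rl2 was 3.50 with pseudocount 0.1, where its rank from the top was 47 in place of 8. It was 2.72 after quantile normalization, and ran from 2.93 to 3.22 with a library left out. For Rtn4r the crotonate change turned to -0.078 after quantile normalization, and the forebrain difference of Lingo1, 0.19, turned to -0.031 under median-of-ratios scaling; the cause was not tested. Quantile normalization also gave crotonate changes of 0.34 for Rtn4rl1, 0.33 for Lingo1, -0.79 for Omg and -0.0004 for Rtn4, a change of 0.56 for Rtn4r with MS-275 against control, and 0.20 for Tnfrsf19 and -0.096 for Rtn4rl2 with MS-275 against crotonate. Median-of-ratios scaling gave crotonate changes of -0.16 for Rtn4 and 0.049 for Tnfrsf19. With a library left out, the crotonate change ran from -0.0829 to -0.0154 for Rtn4 and from -0.56 to -0.21 for Omg. Against crotonate, MS-275 then gave -0.22 to -0.066 for Rtn4rl2, and for Tnfrsf19 0.0504 without MS-275 replicate 4 to 0.19 without MS-275 replicate 3. Within 5 kb in place of 1 kb, 2 genes in place of 1 had a Kcr peak with MS-275 and none in control, against 3.4% of 13773 tested genes. Peaks with -log10 q of at least 5 left 3 of 6 genes with an H3K9cr peak. Without that cutoff 78.1% of the 13773 had an H3K9cr peak within 1 kb, and with it the share was not computed. By Spearman's rank correlation 7 of the 21 genes most like a member were again among the closest 3. The 3 genes named for Rtn4rl2 were not, with ranks of 70, 304 and 927 among 12743 genes. The values rest on TPM without counts and, for peaks, on 1 library per list.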
